A study of Mus musculus with 4 samples.

Results

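The receptor PD-1 (gene Pdcd1), its ligands, the checkpoint receptors Lag3 and Havcr2 and the SHP phosphatases were followed in RNA of brain endothelial cells of mice. The genes were picked by name from the gene rows of the deposited tables and comprise 10 of 21578 genes: the receptors Pdcd1, Lag3 and Havcr2, the B7-family ligands Cd274, Pdcd1lg2, Cd80, Cd86 and Cd276, and the phosphatases Ptpn6 and Ptpn11. All 10 were listed in at least 1 table, and 9 of them passed the filter on low counts and were tested. The samples were labelled as brain endothelial cells of C57BL/6 mice at P0, the day of birth, from the genotypes Pd1fl/fl and Pd1cKO-Tie2. Both genotypes carried the floxed Pd1 alleles, and the Pd1cKO-Tie2 mice also carried Tie2-Cre, whose recombinase removes the floxed gene from the endothelium but is not confined to it, since blood cells and their precursors can be recombined as well. By the study's methods, cortical cells were labelled for CD31 and CD45 and sorted by flow cytometry. There were 2 libraries per genotype, and nothing in the labels says whether each came from 1 animal or from pooled animals, so every p-value measures only the spread between these libraries.

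PD-1 is an inhibitory receptor best known from T cells, where binding of PD-L1 (Cd274) or PD-L2 (Pdcd1lg2) leads to recruitment of the phosphatase SHP-2 (Ptpn11), and also of SHP-1 (Ptpn6), which remove phosphates from activating receptors. PD-L1 is induced by interferons and is made by endothelial, epithelial and myeloid cells, while PD-L2 is made mainly by dendritic cells and macrophages. CD80 and CD86 on antigen-presenting cells bind CD28 and CTLA-4, and CD80 also binds PD-L1. LAG-3 and TIM-3 (Havcr2) are other inhibitory receptors of lymphocytes, and TIM-3 is also a receptor of microglia and other myeloid cells.

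Total counts were between 13715837 and 24147311 per library. Levels are given as CPM, the count scaled to the library total and by edgeR's TMM factor, and a gene was called when it differed at least 2-fold with an edgeR quasi-likelihood p of 0.05 or less, the study's own fold and p limits. Of 15909 tested genes, 4.02% were called, 2.61% as lower and 1.41% as higher in Pd1cKO-Tie2. None had an edgeR adjusted p under 0.05 (0%), while 6.39% had an unadjusted p of 0.05 or less, and DESeq2 on the same genes gave 116 genes with an adjusted p under 0.05. Endothelial markers were abundant, with a summed level of 14103 to 14996 CPM in Pd1fl/fl, against 18244 to 19022 CPM in Pd1cKO-Tie2 libraries, led by the tight junction gene Cldn5. RNA of other cell types was present too, and Pd1fl/fl replicate 1 stood apart by neutrophil genes, whose summed level was 916 CPM there against 2.49 to 55.6 CPM in the other libraries.

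Among the 9 tested genes, 3 were called and all 3 were lower in Pd1cKO-Tie2: the PD-1 ligands Cd274 and Pdcd1lg2 and the receptor Havcr2. Ptpn6 was lower by less than 2-fold, and Lag3, Cd80, Cd86, Cd276 and Ptpn11 overlapped between the genotypes. The 3 genes called lower were 33.3% of the tested ones, beside 2.61% of all genes. In 4 of the 9 genes both Pd1cKO-Tie2 libraries lay below both Pd1fl/fl libraries and in 0 above, where 18.1% and 17.7% of all tested genes did so. The median log2 fold change was -0.78 over the 9 genes and -0.0038 over all tested genes. In edgeR, 0 of the 9 genes had an adjusted p under 0.05, with values between 0.735 and 1.000, while 4 had an unadjusted p of 0.05 or less. DESeq2 on the filtered genes and limma-voom also gave 0 genes under an adjusted p of 0.05, with 4 and 3 genes at an unadjusted p of 0.05 or less.

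**Figure D1:**
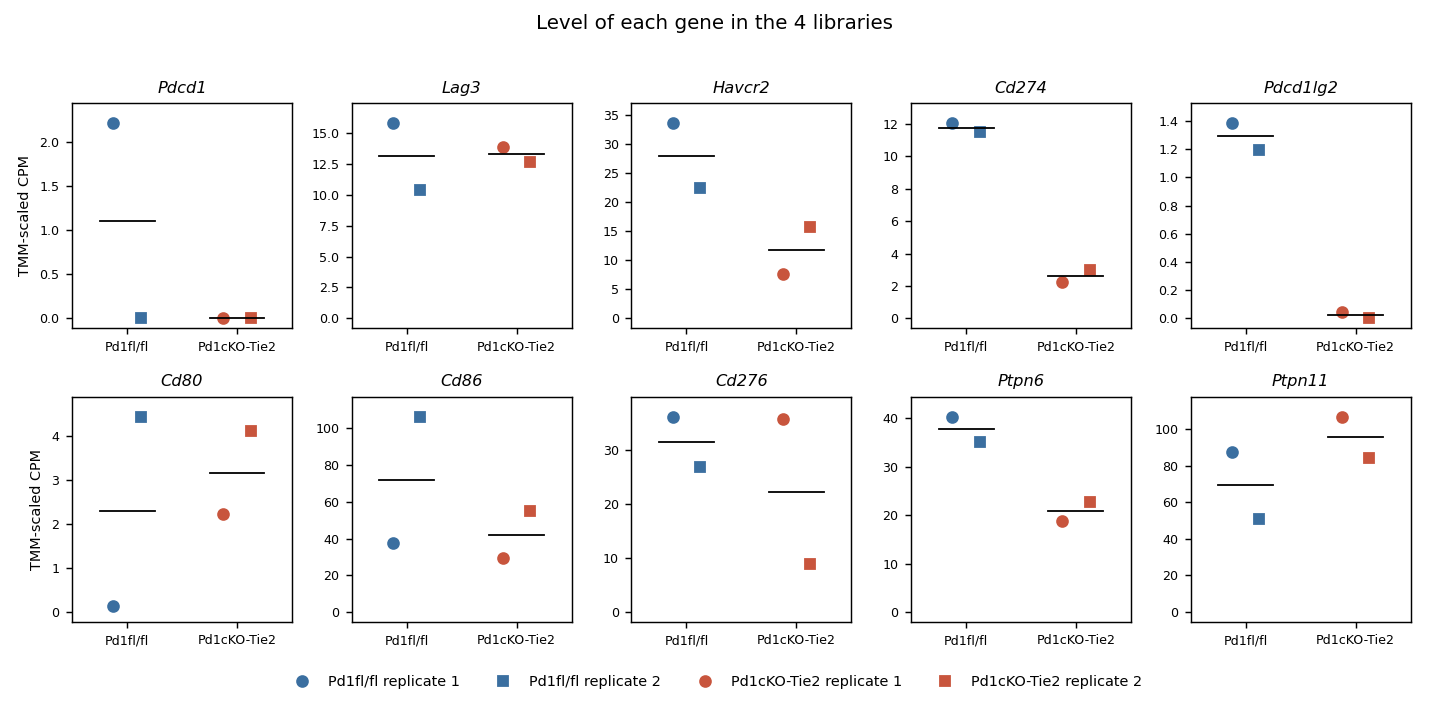
Level of the 10 genes in the 4 libraries, as TMM-scaled CPM on linear axes that differ between panels, with lines at the mean of each genotype. Cd274, Pdcd1lg2, Havcr2 and Ptpn6 are lower in both Pd1cKO-Tie2 libraries, and Pdcd1 has a count in Pd1fl/fl replicate 1 alone, its value in Pd1fl/fl replicate 2 not being listed and drawn at 0.

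The promoters of the 3 called genes are shown because these genes were lower together. They are the RefSeq sequences on GRCm38.p6, from 250 bases before to 50 bases after the annotated start, and 8 of the 10 genes had one. Capitals mark matches, on either strand, to 4 motifs: GAAANNGAA, the core bound by interferon regulatory factors, TTCNNNGAA, the core bound by STAT factors, GAGGAA, a core bound by the myeloid factor PU.1, and GGGCGG, the GC box of Sp1. The promoter of Cd274 is chr19:29367188-29367487 on the plus strand, that of Pdcd1lg2 is chr19:29410669-29410968 on the plus strand, and that of Havcr2 is chr11:46454681-46454980 on the plus strand.
Cd274: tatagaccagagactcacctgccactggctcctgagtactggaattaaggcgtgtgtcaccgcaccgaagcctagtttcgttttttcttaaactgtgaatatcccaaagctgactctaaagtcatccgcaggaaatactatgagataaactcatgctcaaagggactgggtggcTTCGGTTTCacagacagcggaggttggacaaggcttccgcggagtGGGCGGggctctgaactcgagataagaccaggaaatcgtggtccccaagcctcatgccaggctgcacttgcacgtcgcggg
Pdcd1lg2: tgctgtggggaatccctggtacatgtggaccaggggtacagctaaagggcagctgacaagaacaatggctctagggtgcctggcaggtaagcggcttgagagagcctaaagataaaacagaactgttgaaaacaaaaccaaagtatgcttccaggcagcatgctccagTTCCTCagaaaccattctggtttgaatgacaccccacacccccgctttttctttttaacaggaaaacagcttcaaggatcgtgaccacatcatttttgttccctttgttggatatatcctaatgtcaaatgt
Havcr2: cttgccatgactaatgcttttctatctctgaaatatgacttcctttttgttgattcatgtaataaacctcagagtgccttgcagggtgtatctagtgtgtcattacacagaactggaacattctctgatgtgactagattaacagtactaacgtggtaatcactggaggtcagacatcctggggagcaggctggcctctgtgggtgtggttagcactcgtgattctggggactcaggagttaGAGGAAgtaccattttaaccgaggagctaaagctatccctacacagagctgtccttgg
The interferon regulatory factor core was found in the Cd274 promoter and in 8.56% of all 32851 promoters of this length. The GC box also stood in the Cd274 promoter, as it did in 35.7% of all promoters. The PU.1 core was found in the promoters of Pdcd1lg2 and Havcr2 and in 28.3% of all promoters. The STAT core, found in 8.30% of all promoters, was in none of the 3 windows. No motif of the 4 stood in all 3 windows, which describes these letters alone and says nothing of binding. The window of Cd274 held 15 CG dinucleotides, while those of Pdcd1lg2 and Havcr2 held 3 each.

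Pdcd1 (ENSMUSG00000026285), the deleted gene, lies on the minus strand of chromosome 1 from 94038305 to 94052553 in GRCm38. Reads were counted only in Pd1fl/fl replicate 1, 32 of them, while both Pd1cKO-Tie2 libraries held 0, and the gene was not listed for Pd1fl/fl replicate 2, which leaves at most 4 counts there. Only 1 of the 4 libraries therefore held a measurable amount of Pdcd1 RNA. The level in Pd1fl/fl replicate 1 was 2.22 CPM, or 1.15 CPM per kb of exon. It was at least 17.7-fold higher than in Pd1cKO-Tie2 replicate 1 and at least 10.1-fold higher than in Pd1cKO-Tie2 replicate 2, with a count of 0 set to the 3 counts it allows in each library. Against Pd1fl/fl replicate 2, whose 4 counts at most would be 0.282 CPM, no loss was detectable at this depth, since 0 counts allow 0.126 and 0.220 CPM in the Pd1cKO-Tie2 libraries. Pdcd1 did not pass the filter, and edgeR without the filter gave an adjusted p of 0.92 and no call. With the unlisted count also set to 4, a setting chosen after seeing the data that called 3638 genes, Pdcd1 was called lower, with an adjusted p of 0.14. For Pdcd1 this setting raises Pd1fl/fl replicate 2 alone, while both Pd1cKO-Tie2 libraries stay at 0, so the call is not a measured loss. The limits given for Pdcd1 cover counting error only. The counts do not go against the genotype labels, but they check them in 1 control library only, and the counts cover the whole gene, not the floxed exons alone.

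The genes nearest to Pdcd1 in pattern, by the distance of log2(CPM + 1) over the 4 libraries among 14836 protein-coding genes, were Raet1d, Klra1 and Toporsl. Raet1d, a ligand of the natural killer cell receptor NKG2D, and Klra1, a natural killer cell receptor of the Ly49 family, had the same counts as Pdcd1, 32 in Pd1fl/fl replicate 1 and 0 elsewhere. Toporsl had 33 and 0 elsewhere. Raet1d and Klra1 belong to families of similar genes, so their counts are uncertain. A pattern of at least 32 counts in 1 library and at most 4 in each of the others was shown by 205 genes for Pd1fl/fl replicate 1, and by 126, 264 and 82 genes for Pd1fl/fl replicate 2, Pd1cKO-Tie2 replicate 1 and Pd1cKO-Tie2 replicate 2. The 205 genes included 4 of the 10 neutrophil markers, Elane, Lcn2, Ltf and Camp, and none of the other marker lists for cell types, and the sets of the other 3 libraries included no gene of these lists. The neutrophil gene Ngp had 5950 counts there, and 28, 0 and 0 in the others, the 28 in Pd1cKO-Tie2 replicate 1. The neutrophil list was counted in 9 of its 10 genes, with 2 of 4 tested genes called lower, beside 2.61% of all tested genes. Mpo, of the same list, was not confined to that library, with 2423 and 339 counts in Pd1fl/fl, against 1278 and 0 in Pd1cKO-Tie2. Pdcd1 and the summed neutrophil genes were thus highest in the same library, and the part of neutrophils in the count of Pdcd1 was not tested.

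Among the PD-1 ligands, Cd274 (ENSMUSG00000016496, plus strand of chromosome 19, 29367455 to 29388095) encodes PD-L1. Its counts were 174 and 163 in Pd1fl/fl, against 54 and 41 in Pd1cKO-Tie2. Its levels were 12.1 and 11.5 CPM in Pd1fl/fl, against 2.26 and 3.00 CPM in Pd1cKO-Tie2. The genotypes did not overlap, and each Pd1cKO-Tie2 library held between 0.187 and 0.262 times the level of a Pd1fl/fl library. The mean was 11.8 ± 0.416 CPM in Pd1fl/fl, against 2.63 ± 0.525 CPM in Pd1cKO-Tie2 (SD, n = 2 each), a difference well over the spread within each genotype. The edgeR log2 fold change was -2.16 (SE 0.61, 95% interval -3.67 to -0.65, adjusted p = 0.73), and Cd274 ranked at 248 by p among the tested genes. Without Pd1fl/fl replicate 1 the log2 fold change was -2.12 and the call was lost, with a p just over the limit. Exons of Cd274 overlap 511 bases of AC119228.1 on the other strand, which is not listed in the tables, and 12.4% of its stretches of 50 bases occur in other transcripts, so its counts may hold or lack some reads of others. RNA from bulk cells cannot tell fewer cells of a type from less RNA per cell, which holds for every gene here.

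Pdcd1lg2 (ENSMUSG00000016498) encodes PD-L2 and starts 43.5 kb downstream of the start of Cd274. It gave 20 and 17 counts in Pd1fl/fl, against 1 and 0 counts in Pd1cKO-Tie2. The genotypes did not overlap, but the gene was scarce even in Pd1fl/fl, at 1.39 and 1.20 CPM. Pooled over libraries, 37 counts stood against 1, a ratio of 48.6 in favour of Pd1fl/fl after scaling, with an exact 95% counting interval of 8.19 to 1969. That interval leaves out the spread between libraries of a genotype. The edgeR log2 fold change was -5.37 (SE 2.01, 95% interval -10.35 to -0.40, adjusted p = 0.75), a value that depends on the prior count. The call was lost in limma-voom, in DESeq2 on every gene with a count and without any 1 of the 4 libraries, where the log2 fold change was between -7.19 and -4.73.

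The genes around this ligand pair were read to see whether the whole stretch of chromosome was lower, over a window chosen after the values were seen. Within 500 kb of the start of Cd274, 17 genes were tested, and Cd274 and Pdcd1lg2 were the 2 that were called. The other 15 had log2 fold changes between -0.92 and 3.70, none of them called. Plgrkt, the plasminogen receptor gene whose start lies 18.9 kb from that of Cd274, had 736 and 601 counts in Pd1fl/fl, against 1196 and 498 in Pd1cKO-Tie2, with a log2 fold change of -0.11. Jak2, a kinase of the interferon gamma receptor, had a log2 fold change of 0.29. Cd274 held 0.236 and 0.271 counts per Plgrkt count in Pd1fl/fl, against 0.0452 and 0.0823 in Pd1cKO-Tie2, a ratio that no scaling between libraries can move. The 2 genotypes did not overlap in it, and the exact two-sided permutation test gave p = 0.333, the smallest that 2 against 2 libraries allow.

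**Figure D2:**
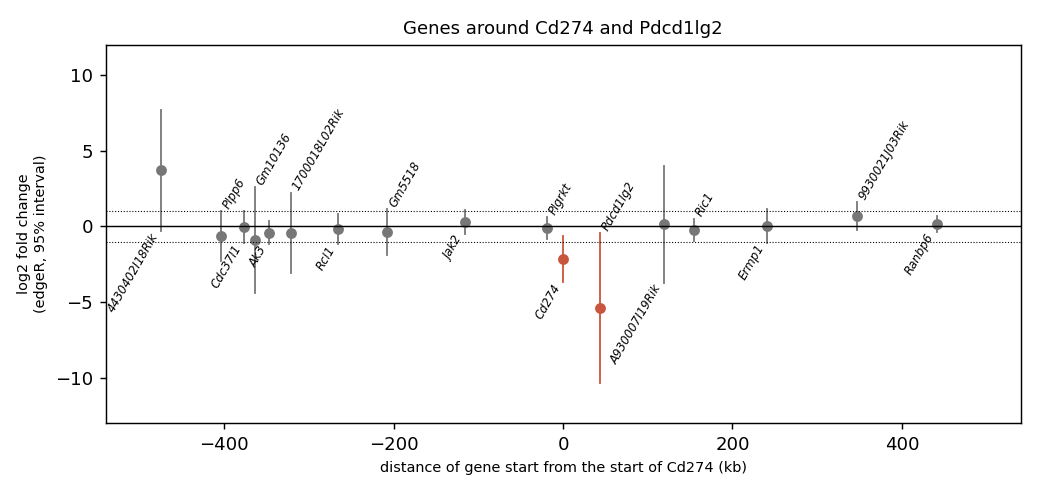
edgeR log2 fold change, Pd1cKO-Tie2 over Pd1fl/fl, with its 95% interval for the 17 tested genes within 500 kb of Cd274, placed by the distance between gene starts in kb, with dotted lines at 2-fold. Cd274 at 0 kb and Pdcd1lg2 at 43.5 kb, in red, are the called genes, and the 15 others lie between -0.92 and 3.70.

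Of the other B7-family ligands, none was called. Cd80 (ENSMUSG00000075122), a ligand of CD28 and CTLA-4, had 2 and 63 counts in Pd1fl/fl, against 53 and 56 in Pd1cKO-Tie2, so that Pd1fl/fl replicate 1 alone stood low. Its log2 fold change was 0.46 (SE 1.58, 95% interval -3.46 to 4.38), and without Pd1fl/fl replicate 1 it was -0.49. Cd86 (ENSMUSG00000022901), the other ligand of CD28, had the highest mean of the ligands in both genotypes, at 37.5 and 106 CPM in Pd1fl/fl, against 29.3 and 54.8 CPM in Pd1cKO-Tie2. The level of 54.8 CPM in Pd1cKO-Tie2 lay between those of the Pd1fl/fl libraries, and the log2 fold change of -0.78 (SE 0.56, 95% interval -2.16 to 0.60) was within the spread. Leaving out Pd1fl/fl replicate 1 gave -1.34, a call, and leaving out Pd1fl/fl replicate 2 gave 0.17. The 2 Pd1fl/fl libraries therefore differed from each other in both CD28 ligands, with 270 Cd86 counts per Cd80 count in replicate 1 and 24.0 in replicate 2, against 13.2 and 13.4 in Pd1cKO-Tie2.

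Cd276 (ENSMUSG00000035914), the B7-H3 ligand found on vessels of many tumours, was at 36.1 and 26.9 CPM in Pd1fl/fl, against 35.8 and 8.79 CPM in Pd1cKO-Tie2. Here the spread lay within Pd1cKO-Tie2, where replicate 1 was at the level of the Pd1fl/fl libraries and replicate 2 was low. The log2 fold change was -0.49 (SE 0.65, 95% interval -2.11 to 1.13), with -1.83, a call, without Pd1cKO-Tie2 replicate 1 and 0.19 without Pd1cKO-Tie2 replicate 2. Its exons share 416 bases with Gm10657 on the other strand, which is not listed in the tables.

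Of the checkpoint receptors, Havcr2 (ENSMUSG00000020399, plus strand of chromosome 11, 46454935 to 46481255), which encodes TIM-3, had 484 and 317 counts in Pd1fl/fl, against 182 and 215 in Pd1cKO-Tie2. In CPM it was at 33.6 and 22.3 in Pd1fl/fl, against 7.62 and 15.7 in Pd1cKO-Tie2, without overlap. The mean was 28.0 ± 7.95 CPM in Pd1fl/fl, against 11.7 ± 5.75 CPM in Pd1cKO-Tie2 (SD, n = 2 each). The edgeR log2 fold change was -1.26 (SE 0.49, 95% interval -2.47 to -0.06, adjusted p = 0.75). The call was lost without Pd1fl/fl replicate 1 (-0.94) and without Pd1cKO-Tie2 replicate 1 (-0.82).

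Lag3 (ENSMUSG00000030124), a receptor of activated T cells that is also transcribed in neurons, was measured in every library, at 15.8 and 10.4 CPM in Pd1fl/fl, against 13.9 and 12.7 CPM in Pd1cKO-Tie2. Both Pd1cKO-Tie2 libraries lay between the Pd1fl/fl libraries. The log2 fold change was 0.02 (SE 0.44), with a 95% interval of -1.08 to 1.11 that leaves room for a change of 2-fold in either direction.

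Of the phosphatases that PD-1 recruits, Ptpn6 (ENSMUSG00000004266), the SHP-1 gene, expressed mostly in blood cells, had 40.3 and 35.2 CPM in Pd1fl/fl, against 18.8 and 22.7 CPM in Pd1cKO-Tie2. The genotypes did not overlap, and the log2 fold change was -0.86 (SE 0.30, 95% interval -1.60 to -0.12, adjusted p = 0.74), short of 2-fold and so not called. Its exons share 195 bases with Gm20531 on the other strand, which had at most 5 counts in any library. Ptpn11 (ENSMUSG00000043733), the broadly expressed SHP-2 gene, had 87.6 and 51.0 CPM in Pd1fl/fl, against 107 and 84.1 CPM in Pd1cKO-Tie2. These groups overlapped by 1 library, and the log2 fold change was 0.46 (SE 0.32, 95% interval -0.32 to 1.25, adjusted p = 0.95).

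The balance of the phosphatases within a library, a ratio chosen after the values were seen, differed without overlap. There were 2.17 and 1.45 Ptpn11 counts per Ptpn6 count in Pd1fl/fl, against 5.67 and 3.70 in Pd1cKO-Tie2. The mean ratio was 1.81 ± 0.511 in Pd1fl/fl, against 4.69 ± 1.39 in Pd1cKO-Tie2 (SD, n = 2 each), 2.59 times as high, with p = 0.333 in the exact two-sided permutation test, the smallest it allows here. Each Pd1cKO-Tie2 library thus held more Ptpn11 counts per Ptpn6 count than either Pd1fl/fl library. Ptpn6 is expressed mostly in blood cells, and the part of such cells in this ratio was not tested. The exons of Ptpn11 span 7492 bases and those of Ptpn6 2802, so undivided counts do not rank the genes. Per kb of exon, Ptpn6 was the higher in Pd1fl/fl, at 14.4 and 12.5 CPM per kb against 11.7 and 6.81 for Ptpn11. In Pd1cKO-Tie2 Ptpn11 was the higher, at 14.3 and 11.2 CPM per kb against 6.72 and 8.10 for Ptpn6.

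**Figure D3:**
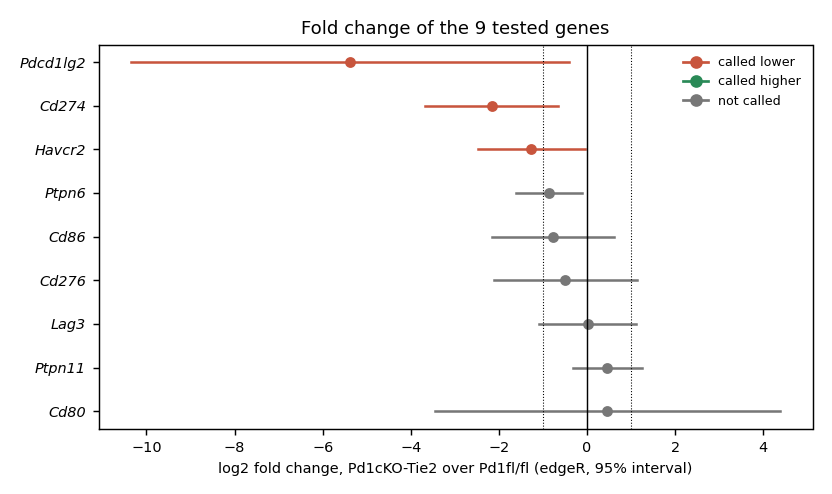
edgeR log2 fold change, Pd1cKO-Tie2 over Pd1fl/fl, with 95% intervals for the 9 tested genes, sorted by size, with dotted lines at 2-fold. Pdcd1lg2 (-5.37), Cd274 (-2.16) and Havcr2 (-1.26) are called lower, Ptpn6 (-0.86) has an interval below 0 but is not called, and the other 5 intervals span 0.

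Levels were compared between the genes as CPM per kb of exon, a scale that removes gene length. In Pd1fl/fl the order of mean levels was Cd86 at 19.7 ± 13.3, Ptpn6 at 13.5 ± 1.30, Havcr2 at 10.3 ± 2.92, Ptpn11 at 9.25 ± 3.46, Cd276 at 8.62 ± 1.78, Lag3 at 6.22 ± 1.81 and Cd274 at 3.25 ± 0.115 CPM per kb (SD, n = 2). Below these stood Pdcd1lg2 at 0.659 ± 0.0685 and Cd80 at 0.618 ± 0.821 CPM per kb. Pdcd1 has no fixed place beside these, since its mean was 0.575 CPM per kb with the unlisted library at 0 and 0.648 with 4 counts there, and its libraries overlapped those of Cd80. The neighbours Cd86 and Ptpn6 overlapped, as did each neighbouring pair from Havcr2 to Lag3 and the pair of Pdcd1lg2 and Cd80, so only the steps from Ptpn6 to Havcr2, from Lag3 to Cd274 and from Cd274 to Pdcd1lg2 separated the libraries. In Pd1cKO-Tie2 the order was Ptpn11 at 12.7 ± 2.15, Cd86 at 11.5 ± 4.93, Ptpn6 at 7.41 ± 0.977, Lag3 at 6.29 ± 0.396, Cd276 at 6.09 ± 5.22, Havcr2 at 4.29 ± 2.11, Cd80 at 0.853 ± 0.360, Cd274 at 0.727 ± 0.145 and Pdcd1lg2 at 0.0107 ± 0.0151 CPM per kb (SD, n = 2). There the libraries separated between Ptpn6 and Lag3, between Havcr2 and Cd80 and between Cd274 and Pdcd1lg2. The lead of Ptpn11 over Cd86 there turned when the longest transcript served as the length, at 12.8 and 16.6 CPM per kb. PD-L1 was thus the lowest of the 7 better measured genes in Pd1fl/fl and stood beside Cd80 in Pd1cKO-Tie2.

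Markers of microglia and macrophages were lower in Pd1cKO-Tie2, as the called genes were, and so were those of radial glia and astrocytes, given below. All 16 microglia and macrophage markers were tested and had log2 fold changes below 0. Of them, 4 were called lower and 0 higher, beside 2.61% and 1.41% of all tested genes. In 13 both Pd1cKO-Tie2 libraries lay below both Pd1fl/fl libraries, where 18.1% of all tested genes did so. The summed level of the 16 markers was 2739 to 3292 CPM in Pd1fl/fl, against 1156 to 2234 CPM in Pd1cKO-Tie2. Their median log2 fold change was -0.93, and no marker was at 0. The leading marker was Csf1r, the receptor for the growth factor that maintains microglia, and Ptprc, which encodes CD45, was at 86.4 and 139 CPM in Pd1fl/fl, against 54.6 and 67.9 CPM in Pd1cKO-Tie2. Endothelial markers moved the other way, with 12 of 12 higher in both Pd1cKO-Tie2 libraries, beside 17.7% of all tested genes. The median log2 fold change of the 12 was 0.35, though 0 were called.

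Set against the summed microglia and macrophage markers of the same library, Cd274 was at 0.441% and 0.349% in Pd1fl/fl and at 0.195% and 0.134% in Pd1cKO-Tie2. Cd274 was lower without overlap on this scale as well. Pdcd1lg2 was at 0.0507% and 0.0364% in Pd1fl/fl and at 0.00362% and 0% in Pd1cKO-Tie2, again without overlap. Havcr2 was at 1.23% and 0.678% in Pd1fl/fl and at 0.659% and 0.705% in Pd1cKO-Tie2, and Ptpn6 at 1.47% and 1.07% against 1.63% and 1.02%. On this scale Havcr2 and Ptpn6 overlapped between the genotypes. Cd80 and Ptpn11 were higher without overlap on it, Ptpn11 at 3.20% and 1.55% in Pd1fl/fl and at 9.24% and 3.76% in Pd1cKO-Tie2. Lag3, Cd86 and Cd276 overlapped. The marker sum itself was lower in both Pd1cKO-Tie2 libraries, which raises every such percentage there. The part of microglia and macrophages in the levels of these genes was not tested beyond these ratios, and other myeloid cells may express them at other ratios.

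**Figure D4:**
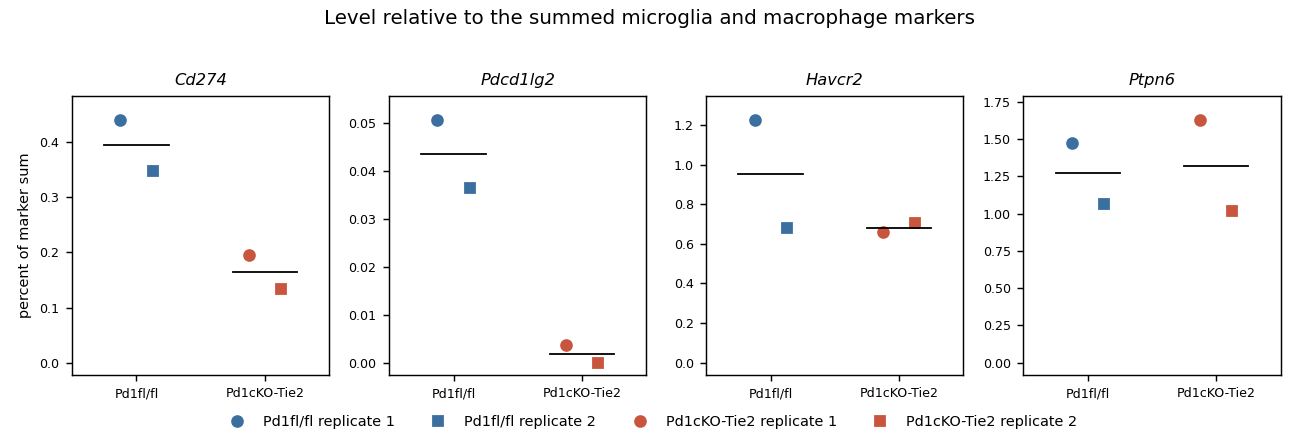
CPM of Cd274, Pdcd1lg2, Havcr2 and Ptpn6 as a percent of the summed CPM of 16 microglia and macrophage markers in the same library, with lines at the mean of each genotype and axes that differ between panels. Cd274 and Pdcd1lg2 stay lower in both Pd1cKO-Tie2 libraries, while Havcr2 and Ptpn6 overlap.

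Lymphocyte markers were scarce, with a summed level of 64.8 to 65.7 CPM in Pd1fl/fl, against 76.5 to 87.7 CPM in Pd1cKO-Tie2 over 16 of 17 genes listed. Of 12 tested lymphocyte markers, 0 were called lower and 1 higher, beside 2.61% and 1.41% of all tested genes. Of the 12, 5 had log2 fold changes below 0 and 7 above. The 1 called was Cd8a, with 0 counts in each Pd1fl/fl library, against 27 and 18 in Pd1cKO-Tie2. The highest marker was the kinase gene Zap70, and no listed marker was at 0 in every library. The CD3 chain gene Cd3e, too low to be tested, had 8 and 0 counts in Pd1fl/fl, against 0 and 8 in Pd1cKO-Tie2. Radial glia and astrocyte markers, led by the glutamate transporter Slc1a3, had lower sums in Pd1cKO-Tie2. These were 804 to 826 CPM in Pd1fl/fl, against 401 to 533 CPM in Pd1cKO-Tie2. All 6 had log2 fold changes below 0, with a median of -0.87, and 2 were called lower, beside 2.61% of all tested genes. In 5 of the 6 both Pd1cKO-Tie2 libraries lay below both Pd1fl/fl libraries, where 18.1% of all tested genes did so. Of the pericyte, neuron and erythroid markers, led by Rgs5, Dcx and Hba-a1, 0 were called, and their summed levels overlapped between the genotypes.

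Other checkpoint receptors and ligands were read from a list of 36 genes, of which 27 were listed and 24 tested. Of these, 1 was called lower and 2 higher, beside 2.61% and 1.41% of all tested genes, and the median log2 fold change was -0.18. In 8 both Pd1cKO-Tie2 libraries were lower and in 6 higher, where 18.1% and 17.7% of all tested genes did so. Cd200r1, the inhibitory receptor of myeloid cells for CD200, had 92 and 183 counts in Pd1fl/fl, against 5 and 9 in Pd1cKO-Tie2, a log2 fold change of -4.48 (SE 1.04, adjusted p = 0.73). Cd200r1 was called in all 13 alternatives that tested it, with adjusted p between 0.012 and 0.93, and both DESeq2 fits put it under 0.05 after adjustment, with an adjusted p of 0.012 on the filtered genes. Nectin3, an adhesion molecule that binds checkpoint receptors, was at 10.5 and 5.99 CPM in Pd1fl/fl, against 23.7 and 16.3 CPM in Pd1cKO-Tie2, a log2 fold change of 1.28 (SE 0.49, adjusted p = 0.75). Tnfrsf9, the 4-1BB receptor gene, was at 0 in each of the Pd1fl/fl libraries and had 22 and 24 counts in Pd1cKO-Tie2, which is at least 4.36-fold higher with 3 counts allowed per library. Setting Tnfrsf9 at that bound left the median of the list at -0.18.

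The most abundant checkpoint genes per kb were Lgals9, which encodes the TIM-3 ligand galectin-9, and Cd40, the receptor for CD40 ligand. Lgals9 was at 382 and 288 CPM in Pd1fl/fl, against 491 and 503 CPM in Pd1cKO-Tie2, a log2 fold change of 0.57 (SE 0.18, adjusted p = 0.73), under 2-fold. Lgals9 thus stood above both Pd1fl/fl libraries where Havcr2 stood below. Ctla4 and Cd28, the receptors for CD80 and CD86, were among the 9 genes of the list that were not listed, so each had at most 4 counts in any library.

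**Figure D5:**
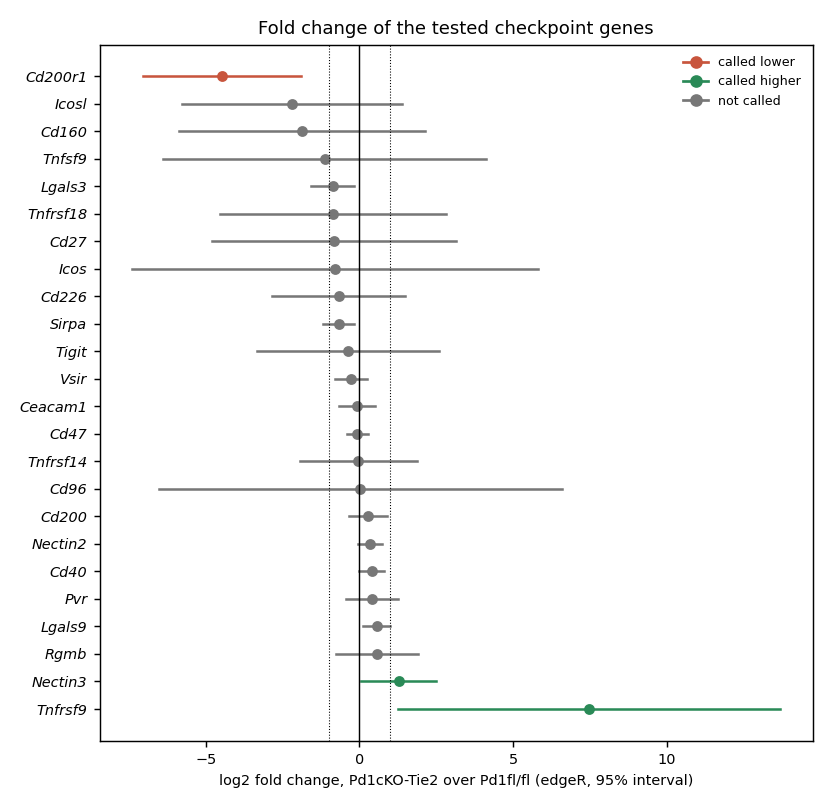
edgeR log2 fold change, Pd1cKO-Tie2 over Pd1fl/fl, with 95% intervals for the 24 tested genes of the checkpoint list, sorted by size, with dotted lines at 2-fold. Cd200r1 is called lower, Nectin3 and Tnfrsf9 are called higher, and the value of Tnfrsf9 is not a measured fold since its Pd1fl/fl libraries are at 0.

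Partners and substrates of SHP-1 and SHP-2 were read from a list of 28 genes, 27 of them tested. Of these, 1 was called, beside 4.02% of all tested genes, and it was Lcp2, which encodes the adaptor SLP-76 of blood cells. Lcp2 was at 61.4 and 120 CPM in Pd1fl/fl, against 30.3 and 45.0 CPM in Pd1cKO-Tie2, a log2 fold change of -1.27 (SE 0.40, adjusted p = 0.73). The median log2 fold change of the list was 0.01, with 13 genes below 0 and 14 above. At an unadjusted edgeR p of 0.05 or less, 4 genes were lower and 0 higher, beside 6.39% of all tested genes in either direction. They were Lcp2, Inpp5d, Sirpa and Ptprc, of which the last 3 are named after their values were seen. These last 3 are expressed in myeloid cells and Lcp2 in blood cells. The part of such cells in the levels of these 4 genes was not tested. The highest levels per kb were those of the GTPase gene Nras and of Pecam1, which encodes CD31, with log2 fold changes of -0.0023 and 0.29.

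Regulators of PD-L1, from the interferon receptors, JAK kinases and STAT and IRF factors to the proteins that stabilise or degrade PD-L1, were read from a list of 25 genes, and all 25 were tested. None was called in edgeR, in DESeq2 or in limma-voom, beside 4.02% of all tested genes called in edgeR, and 1 was called without Pd1cKO-Tie2 replicate 2. In edgeR, 2 genes had an unadjusted p of 0.05 or less, 1 in each direction, and the median log2 fold change was 0.07. Cmtm6, which protects PD-L1 from degradation, was the most abundant per kb, at 1105 and 1032 CPM in Pd1fl/fl, against 1069 and 1124 CPM in Pd1cKO-Tie2, a log2 fold change of 0.04 (SE 0.11). Ifngr1, the ligand-binding chain of the interferon gamma receptor, was at 434 and 415 CPM in Pd1fl/fl, against 345 and 325 CPM in Pd1cKO-Tie2, a log2 fold change of -0.34 (SE 0.13, adjusted p = 0.76). Ifnar2, a chain of the type I interferon receptor named after its values were seen, was at 32.8 and 31.8 CPM in Pd1fl/fl, against 69.2 and 48.5 CPM in Pd1cKO-Tie2, a log2 fold change of 0.86 (SE 0.29, adjusted p = 0.73).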

How the data were processed

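Gene expression was measured by RNA sequencing of sorted brain endothelial cells, with duplicate libraries of Pd1fl/fl and Pd1cKO-Tie2. The deposited data are 4 tables, in which every library of one genotype is paired with every library of the other. The counts are whole reads per gene as counted by the authors, not normalized. The deposited CPM columns are the authors' counts scaled to the library total, with a count of 0 replaced, and served only to recover the totals. The tables also hold the authors' fold changes, p-values and adjusted p-values, which were not used. The submitters' processing notes name Bowtie2 2.2.3, TopHat2 2.0.12, HTSeq 0.6.0 and mm9, yet the listed gene positions belong to GRCm38, since 90.0% of them equal those in GENCODE M21. Whether counting used strand is not given in the sources used here.

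The tables were joined by gene identifier, skipping 10 broken lines and restoring 23 symbols turned into dates. Every row has a count in both libraries or at least 5 in 1 of them, so an unlisted gene has at most 4 counts and was set to 0. The number of one knockout column is absent from the labels. That column was taken as Pd1cKO-Tie2 by its name, and libraries are numbered by their columns. The total counts were 13715837 to 24147311.

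Genotypes were compared in R 4.3.3 by edgeR 4.0.16 (quasi-likelihood, filterByExpr, TMM, no covariate). P-values of 15909 genes were adjusted by Benjamini-Hochberg, at a common biological coefficient of variation of 0.610. Alternatives were DESeq2 1.42.0, limma-voom (limma 3.58.1), other filters and scalings, unlisted counts set to 4, and each library left out in turn. One more, no filter together with unlisted counts set to 4, was chosen after seeing the data. The script was tested on simulated data. Levels per kb use the union of GENCODE exons. Shared sequence was read from stretches of 50 bases.

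The genes, gene lists and tests were chosen with earlier results of these data known. The genes named from each list were those called, at most 4 by p, and the 2 most abundant per kb, and for cell types the most abundant marker. Other genes named, such as Cd3e, Cd8a, Plgrkt, Jak2, Ctla4, Cd28 and single neutrophil markers, were chosen after their values were seen.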

Additional observations from a re-analysis of the deposited data

How the results depend on the processing

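No paired analysis was possible because the genotypes share only 1 replicate number in the labels. With 2 libraries per genotype, the depth and the spread limit what can be called, and no gene of the 10 had an adjusted p under 0.05 under any of the 14 alternatives to the main fit. Leaving out 1 library at a time gave 689 to 877 genes called over all tested genes, 1 to 2 of the 10 genes, 1 to 3 checkpoint genes, 0 to 3 phosphatase partners and 0 to 1 PD-L1 regulators. The genes called were not always those of the main fit. Without Pd1fl/fl replicate 1, Cd274 (-2.12), Pdcd1lg2 (-5.30) and Havcr2 (-0.94) all lost the call, while Cd86 (-1.34) was called. Without Pd1cKO-Tie2 replicate 1, Cd274 (-1.96) and Cd276 (-1.83) were called and Havcr2 (-0.82) was not. Without Pd1fl/fl replicate 2 or Pd1cKO-Tie2 replicate 2, Cd274 (-2.19 and -2.37) and Havcr2 (-1.52 and -1.87) were called. Of the phosphatase partners, 2 were called without Pd1fl/fl replicate 1, 0 without Pd1fl/fl replicate 2 and 3 without Pd1cKO-Tie2 replicate 2, and of the checkpoint genes 1 without Pd1fl/fl replicate 2. The 1 PD-L1 regulator was called without Pd1cKO-Tie2 replicate 2.

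The leave-one-out log2 fold changes ran from -2.37 to -1.96 for Cd274, from -1.87 to -0.82 for Havcr2, from -7.19 to -4.73 for Pdcd1lg2, from -1.34 to 0.17 for Cd86, from -1.83 to 0.19 for Cd276, from -0.49 to 4.44 for Cd80 and from -0.25 to 0.35 for Lag3. Cd274 and Havcr2 were called in 13 and 12 of 14 alternatives, and Pdcd1lg2 in 6 of 13, as it falls below a filter of 10 counts in every library. Besides the fits without a library, Pdcd1lg2 was not called by DESeq2 on every gene (-5.64), limma-voom (-4.79) or without the low count filter (-5.40). Signs turned for Lag3 with library size scaling (-0.041) and without Pd1fl/fl replicate 2 (-0.25) or Pd1cKO-Tie2 replicate 1 (-0.041). They also turned for Cd80 without Pd1fl/fl replicate 1 (-0.49) or Pd1cKO-Tie2 replicate 2 (-0.04), for Cd86 without Pd1fl/fl replicate 2 (0.17) and for Cd276 without Pd1cKO-Tie2 replicate 2 (0.19). The fit with unlisted counts at 4 and no filter called 3638 genes, 5 checkpoint genes and 4 of the 10 genes, Pdcd1 (-7.37) among them, and a filter of 10 counts in every library, which tests fewer genes, called 1 checkpoint gene. With the longest transcript in place of all exons, levels per kb moved to 0.748 for Pdcd1lg2 and 16.4 for Ptpn6 in Pd1fl/fl, to 28.3 for Cd86 there, within its spread, and to 16.6 for Cd86 and 8.999 for Ptpn6 in Pd1cKO-Tie2. Beyond what each setting's construction shows, the cause was not tested.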
